A study of Mus musculus with 15 samples.

Results

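The histone genes of mouse stomach were followed in tumors of 4 gastric sites and in normal stomach tissue. Members were chosen by symbol: the names beginning with Hist1h to Hist4h, H1f, H2af or H3f were taken, H2afx and 4 pseudogenes with the ending -ps were left out, and a gene needed 10 or more counts in at least 3 libraries. Of 36144 genes in the count table, 90 symbols matched, 85 were eligible, and 44 were members. Of these, 35 are replication-dependent genes with Hist symbols, out of 69 eligible, and 9 are variant genes, out of 16 eligible. The 3 members that only just passed, each with 10 counts in exactly 3 libraries, were Hist1h1b (100 counts over all libraries), Hist1h2ad (82) and Hist1h2ai (84). The 5 genes that just missed, with 10 counts in exactly 2 libraries, were Hist1h2ao (71), Hist1h2bk (65), Hist1h2ab (61), Hist1h3i (58) and Hist1h4a (54). In all, 41 eligible genes fell short, 8 of them at 0 counts in every library.

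Histones are the proteins around which DNA is wound: H2A, H2B, H3 and H4 form the core of the nucleosome, and H1 binds the linker DNA between nucleosomes. The replication-dependent genes lie in clusters, lack introns and are transcribed in S phase to package newly made DNA. Their messages end in a short stem-loop in place of a poly(A) tail, and the stem-loop binding protein Slbp holds that end through processing, translation and decay. The variant, or replacement, histones come from ordinary polyadenylated messages that are made throughout the cell cycle. The sources used here do not say whether the libraries were selected for poly(A) tails, so the level of a replication-dependent message is the level that these libraries captured.

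Bulk RNA sequencing covered 15 samples, 3 of normal tissue and 3 each of tumors from the antrum, the greater curvature, the lesser curvature and the corpus. All of them, the normals included, were from C57BL/6 mice of 7 to 8 weeks carrying Rb1fl/fl and Trp53fl/fl alleles together with Pou2f3-CreERT and LSL-MycT58A, and all were labelled as tamoxifen-induced (50 mg/kg, intraperitoneal, 20 mg/mL stock) with a time of 5 weeks. The Cre is driven by Pou2f3, a factor of tuft cells, so recombination is directed to those cells, and the normals are tissue of the same model rather than of unaltered mice. The labels call the samples biological replicates without saying whether they came from separate animals, so the spread that the p-values measure is that between these samples and may be technical. No label gives the part of the stomach that the normal tissue came from.

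Library totals ran from 7957165 counts in lesser curvature 2 to 21564972 in greater curvature 2, so 1 count stood for 0.0478 to 0.112 CPM (counts scaled to a common library size). Listed gastric epithelial markers (8 of 8 detected) summed to 118700 to 166900 TPM (transcript abundance per length, scaled to a fixed total) in the normals and to 231.1 to 134400 TPM in the tumors. They were highest among tumors in corpus 1 (134400) and greater curvature 2 (97970), which lay near the normals, and lowest in lesser curvature 1. Smooth muscle markers fell in tumors, 5 of 5, with sums of 1450 to 2315 TPM against 120.9 to 596 TPM. Squamous markers reached 2775 TPM in normal 2 against under 1 TPM in the other normals, and 294.6, 1368 and 737.4 TPM in lesser curvature 1, 2 and 3 against at most 67.3 TPM in the other tumors. Of 17 listed S-phase genes 16 rose in tumors (edgeR test described with the comparison). In bulk tissue, fewer cells of a type and less RNA per cell cannot be told apart, and the part of these shifts in the histone results was not tested.

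On the TPM scale, which divides by annotated transcript length, the variant genes had the higher captured levels. Capture may differ between the kinds, since selection for poly(A) tails is not stated. Annotated lengths of Hist genes also vary, such as 312 bases for Hist1h4k and 7425 for Hist1h1d, and TPM depends on them. H2afz, which encodes the H2A.Z variant found at promoters, averaged 750 TPM over the 15 libraries. H3f3a and H3f3b, 2 genes for the same replacement histone H3.3, averaged 660 and 451 TPM. The remaining variants ran from 185 TPM for H1f0, a linker histone of differentiated cells, down to 18.3 TPM for H2afy2, which encodes macroH2A2. All 9 variant members were at 10 TPM or more. Of the 35 Hist members only 6 were, and 12 were under 1 TPM. Hist1h2bc, an H2B gene, averaged 77.5 TPM and made up 28.8% of the summed Hist TPM, and Hist1h1c, a linker histone gene, averaged 50.6 TPM (19.9%). Hist2h2aa2 (25.3), Hist1h4i (22.6), Hist3h2ba (15.4) and Hist3h2a (13.2) followed. As captured, the summed variant TPM was 4.91 to 13.8 times the summed Hist TPM in the individual libraries.

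The stem-loop was searched in GENCODE M21 transcripts as a record of which annotated transcripts hold the replication-dependent 3′ end. A transcript annotated short of that end cannot show it, so a missing match does not show that a gene lacks the stem-loop. It was found in 46 of 69 eligible Hist genes, in 27 of the 35 Hist members, in 0 of 9 variant members, and in 59 of 55341 genes in all. The 26 bases around it are shown for 4 genes whose levels are described further on, with the 16 bases of the stem-loop in capitals.

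Hist1h3g: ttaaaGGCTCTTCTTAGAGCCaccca

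Hist1h4i: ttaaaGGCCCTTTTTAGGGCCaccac

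Hist1h4h: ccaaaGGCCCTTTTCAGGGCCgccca

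Hist2h2aa2: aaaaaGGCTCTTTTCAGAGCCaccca

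The annotated transcript of Hist1h3g continues for 47 bases past the stem-loop, that of Hist1h4h for 46 and that of Hist2h2aa2 for 35, while that of Hist1h4i continues for 330. Of the 23 eligible genes whose annotated transcript runs more than 100 bases past the stem-loop, 18 were members, with a median of 215 counts over all libraries and 0.831 TPM. Of the 23 whose transcript ends within 100 bases, 9 were members, with medians of 61 counts and 1.0 TPM. The longer transcripts thus had more counts but not a higher level per length. No stem-loop was found in the annotated transcripts of Hist1h2bc and Hist1h1b. Some transcripts without a match are short, such as 312 bases for Hist1h4k, 393 for Hist1h2ai and 743 for Hist1h1b. Whether their annotation reaches the 3′ end of the message was not tested. Hist1h1c carries one, 840 bases before its annotated end.

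Tumors of all sites were set against the normals to ask which histone genes the tumors changed in common. Among the 43 members tested, 12 were higher in tumors and 2 lower (edgeR quasi-likelihood test, Benjamini-Hochberg adjusted p under 0.05 over 16224 genes). Over all genes tested, 16.2% were called higher and 15.7% lower, together 31.9%, close to the 32.6% of members called in either direction. The Hist members rose in 7 of 34 cases (20.6%) and fell in 2, with a median log2 fold change of 0.86. Of the Hist members that rose, all but Hist1h4i met the member rule only through counts in tumors. For low genes the rule thus favored those high in tumors, and its part in this share and median was not tested. Nor was it tested how far the filter over all genes did the same. The variants rose in 5 of 9 cases (55.6%, against 16.2% of all genes) and fell in 0, with 0 at an unadjusted p under 0.05 in that direction and 0 lower with DESeq2 or limma, and their median was 0.73. The median over all genes was -0.04. Hist1h2ad, a member, did not pass the filter on low counts over all genes and was not tested.

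The number of calls among members moved with the libraries used, as it did over all genes. Without normal 2 or without normal 3, only 2 Hist members (Hist1h1b and Hist1h3g) and 1 variant (H2afy) were called higher, and without normal 1 the numbers were 4 and 4. Over all genes, 2628 were higher with every library, 1781 without normal 1, 1352 without normal 2 and 1145 without normal 3. Without greater curvature 2 the Hist members called higher numbered 10 (3395 of all genes), and without both greater curvature 2 and corpus 1 they numbered 11, with 4 lower (3605 and 3648 of all genes). Tested against a 1.5-fold change, 4 of the 14 called members were still called (Hist1h1b, Hist1h3g, Hist1h4i and Hist2h2aa2) and 10 were not, H2afy at an adjusted p of 0.208 among them, while over all genes 822 were higher and 703 lower.

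**Figure D1:**
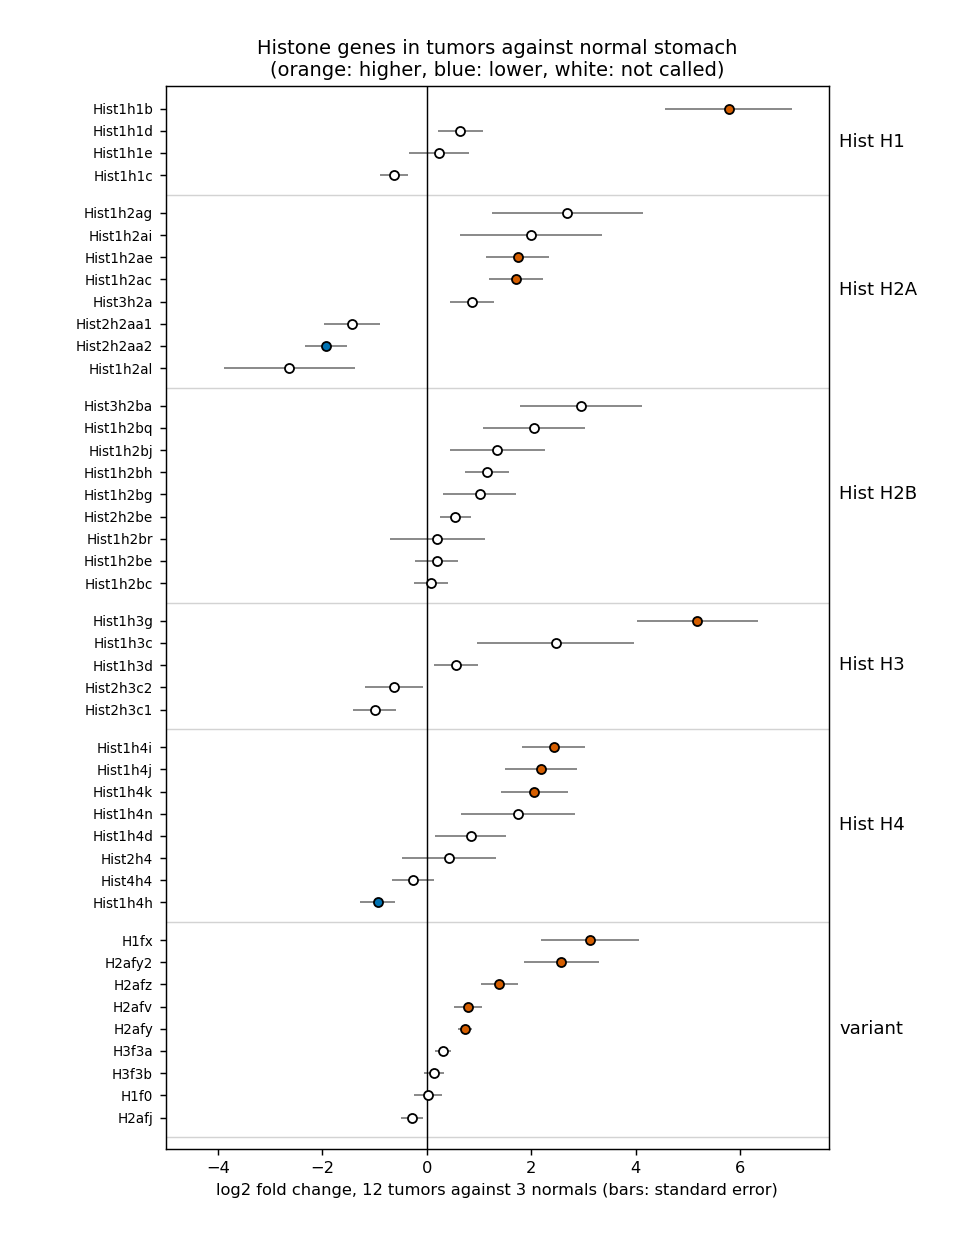
Log2 fold change of each of the 43 tested histone genes in 12 tumors against 3 normals (x axis, bars are standard errors), grouped by class, with called genes in orange (higher) or blue (lower) and the others in white. Hist1h1b (5.78) and Hist1h3g (5.18) lie farthest to the right, and no Hist H2B gene is called.

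Among the linker histones of the Hist group, Hist1h1b (chromosome 13, 21779883 to 21780625, GRCm38), which encodes the subtype H1.5, was the member with the largest rise. It had 0 counts in each of the 3 normals and 2 to 27 counts in the tumors, with a median of 6. On the CPM scale the tumors ran from 0.117 through a median of 0.374 to 1.33, the highest being lesser curvature 1. All 12 tumors thus lay above all normals. A floor of 3 counts over the 3 normals (0.0786 CPM) was taken as the 95% bound for counting error in the normals. Against it, the pooled tumors at 0.491 CPM were 6.24-fold higher. That ratio leaves out counting error in the tumors and the spread between samples. The fitted log2 fold change was 5.78 (SE 1.21, adjusted p = 0.00802), a value that for a group at 0 depends on the prior count. The call was kept when any 1 of the 15 libraries was left out. Of its 31-base words, 96.1% occur in no other annotated gene.

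The other 3 Hist H1 members were not called. Hist1h1c, which encodes H1.2, stood at 55.2, 73.3 and 106.4 CPM in the normals and at 31.7 to 79.1 CPM in the tumors (median 50.2). Its tumors overlapped the normals, 7 of 12 lying below all of them. Its log2 fold change was -0.63 (SE 0.27, adjusted p = 0.0847), and without greater curvature 2 and corpus 1 together the adjusted p was 0.0461. Hist1h1d changed by 0.64 (adjusted p = 0.255) and Hist1h1e by 0.23 (adjusted p = 0.771), also in log2.

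For the H3 class, Hist1h3g (chromosome 13, 23535422 to 23535951) went from 0, 0 and 1 counts in the normals to 3 to 48 counts in the tumors, with a median of 21.5. The tumors spanned 0.153 to 2.36 CPM (median 1.34), and all 12 lay above the highest normal at 0.0765 CPM. The ratio of tumor to normal counts per library size was 49.4, with an exact 95% interval of 8.79 to 1959 that covers counting error only. The fitted log2 fold change was 5.18 (SE 1.16, adjusted p = 0.00815), kept with any library left out. Only 39.8% of its 31-base words are its own, and 58.8% are shared with Hist1h3h, so reads could be split between the copies.

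Hist2h3c1, an H3 gene of the chromosome 3 cluster, had lower values in tumors but did not pass the test. It stood at 12.8, 12.9 and 11.9 CPM in the normals and at 2.72 to 11 CPM in the tumors (median 6.23), with all 12 tumors below all normals. The log2 fold change was -1.0 (SE 0.41, adjusted p = 0.0765), and without greater curvature 2 the adjusted p was 0.0108. On the TPM scale the separation did not hold, with 3 tumors above all normals. Its annotated sequence is shared in full with the gene model Gm20634, so its counts are uncertain. Hist2h3c2 (-0.63) and Hist1h3c (2.47) were not called either, with adjusted p-values of 0.382 and 0.208.

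Of the 8 H4 members, which encode the same core protein, 3 rose and 1 fell. Hist1h4i (chromosome 13, 22040636 to 22041362) was the most abundant of them. It stood at 2.20, 1.48 and 1.68 CPM in the normals and at 2.14 to 22.1 CPM in the tumors, with a median of 10.1. The lowest tumor was greater curvature 2, which fell within the normal range, and the other 11 lay above it. The rise of 2.43 on the log2 scale (SE 0.61, adjusted p = 0.0127) was no longer called if normal 2 (0.0562) or normal 3 (0.0564) was left out. Hist1h4j and Hist1h4k rose from at most 3 counts in any normal to 3 to 29 and 3 to 18 counts in the tumors, by 2.18 (SE 0.69, adjusted p = 0.0317) and 2.06 (SE 0.64, adjusted p = 0.03) on the log2 scale. In each, 11 of 12 tumors were above all normals. Leaving out any of the 3 normals ended each call, with adjusted p-values of 0.0777 to 0.126 for Hist1h4j and 0.0504 to 0.0743 for Hist1h4k, and leaving out corpus 2 moved Hist1h4j to 0.05. Hist1h4k shares 73.1% of its 31-base words with Hist1h4a, so its counts are uncertain.

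Hist1h4h (chromosome 13, 23531050 to 23531519) was lower in tumors. Its normals stood at 1.03, 1.22 and 0.917 CPM and its tumors at 0.224 to 0.949 CPM (median 0.578), 11 of 12 below all normals. The log2 fold change was -0.94 (SE 0.33, adjusted p = 0.0497). This call lay at the threshold: it was kept only when antrum 1 or lesser curvature 1 was the library left out, and the other 13 gave adjusted p-values of 0.0523 to 0.172. With DESeq2 size factors the adjusted p was 0.0536, with no filter on low counts 0.099 and with limma on log2 TPM 0.385. On the TPM scale 6 of 12 tumors lay below all normals.

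The 250 bases before the RefSeq start site (GRCm38.p6) are printed for the H1, H3 and H4 genes that rose most and for the H4 gene that fell, to show what their promoters hold. Capitals mark 4 motifs searched on both strands: the octamer ATTTGCAT, the CCAAT box, the TATA box TATAAA and the E2F word TTCGCGC. No motifs overlapped in these windows.

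Hist1h1b, chr13:21780626-21780875, minus strand: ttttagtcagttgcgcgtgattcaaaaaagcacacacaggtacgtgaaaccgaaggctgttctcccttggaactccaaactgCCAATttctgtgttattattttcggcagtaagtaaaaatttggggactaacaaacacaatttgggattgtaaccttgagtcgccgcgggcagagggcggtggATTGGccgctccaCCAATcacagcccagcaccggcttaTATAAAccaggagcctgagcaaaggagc

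Hist1h3g, chr13:23535168-23535417, plus strand: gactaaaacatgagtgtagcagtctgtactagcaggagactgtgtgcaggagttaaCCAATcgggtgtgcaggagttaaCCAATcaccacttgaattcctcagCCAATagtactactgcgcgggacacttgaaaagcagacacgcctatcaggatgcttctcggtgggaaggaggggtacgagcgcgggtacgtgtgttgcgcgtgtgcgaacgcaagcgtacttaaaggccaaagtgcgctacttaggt

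Hist1h4i, chr13:22041363-22041612, minus strand: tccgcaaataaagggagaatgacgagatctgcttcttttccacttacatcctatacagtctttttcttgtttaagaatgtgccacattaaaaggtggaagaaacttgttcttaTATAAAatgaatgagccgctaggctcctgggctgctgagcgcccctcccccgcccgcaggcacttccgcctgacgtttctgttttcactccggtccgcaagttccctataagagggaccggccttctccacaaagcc

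Hist1h4h, chr13:23530794-23531043, plus strand: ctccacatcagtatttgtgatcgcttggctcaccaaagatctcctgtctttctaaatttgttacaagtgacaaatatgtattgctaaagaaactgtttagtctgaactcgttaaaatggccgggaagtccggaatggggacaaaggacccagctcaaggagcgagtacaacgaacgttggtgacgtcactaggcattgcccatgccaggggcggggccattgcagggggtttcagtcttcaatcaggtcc

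The Hist1h1b window holds 3 CCAAT boxes and 1 TATA box, the Hist1h3g window 3 CCAAT boxes, the Hist1h4i window 1 TATA box and the Hist1h4h window none of the 4 motifs. Over all 32817 promoter windows of that length, 33.8% hold CCAAT, 12.4% TATAAA, 1.6% the octamer and 1.28% the E2F word. Among the 31 Hist members with a window the shares were 74.2%, 38.7%, 16.1% and 12.9%. CCAAT was in 100% of the windows of eligible H1, H2A and H2B genes, in 8 of 10 for H3 and in 3 of 12 for H4. These are matches of letters and not measured binding sites.

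The H2A class moved in both directions. Hist1h2ac (chromosome 13, 23681467 to 23683948) had 4 counts in each normal, or 0.294, 0.349 and 0.306 CPM. Its tumors spanned 0.474 to 3.15 CPM with a median of 0.843, and all 12 lay above all normals, with lesser curvature 1 the highest. In log2 it rose by 1.71 (SE 0.51, adjusted p = 0.0254), and it lost its call without normal 1, 2 or 3 (adjusted p = 0.0822, 0.0745 and 0.0906). Hist1h2ae rose by 1.74 (SE 0.60, adjusted p = 0.0445), from 1 to 5 counts in the normals to 3 to 27 in the tumors, 9 of 12 above all normals. That call was kept only without normal 1, antrum 3, greater curvature 1, greater curvature 2 or corpus 1, and the other 10 libraries gave 0.0518 to 0.172 when left out. It was also lost with no filter on low counts (0.0674).

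Hist2h2aa2 (chromosome 3, 96239749 to 96240276) fell. It stood at 17.8, 18.2 and 23.2 CPM in the normals and at 1.54 to 12.2 CPM in the tumors, with a median of 5.32. All 12 tumors lay below all normals, on the TPM scale too. Its change of -1.93 in log2 (SE 0.41, adjusted p = 0.00705) stayed called with any 1 library left out. Its annotated sequence is identical to part of its near neighbour Hist2h2aa1, so that 0% of its 31-base words are its own and the split between the copies is uncertain. Hist2h2aa1 changed by -1.43 (SE 0.54, adjusted p = 0.0595), and it passed the test without greater curvature 2 (0.0294), corpus 1 (0.0305), lesser curvature 1 (0.0453) or lesser curvature 3 (0.0452). With the copies summed, a setting added after the data were seen, the normals stood at 24.3, 24.8 and 28.3 CPM and the tumors at 3.38 to 16 CPM, again without overlap, and the log2 fold change was -1.73 (SE 0.38, adjusted p = 0.00744).

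Over all tested genes, 6.65% had every tumor below every normal in CPM, as 2 members did (Hist2h2aa2 and Hist2h3c1). Every tumor was above every normal in 9.58%, as in 5 members (Hist1h1b, Hist1h2ac, Hist1h3g, H2afy and H2afz). The 3 Hist genes among those 5 met the member rule only through tumors. So did Hist1h2ae, Hist1h4j and Hist1h4k among the other Hist genes called higher. Hist1h2al changed by -2.63 (SE 1.26, adjusted p = 0.122). GENCODE annotates it as a processed pseudogene, and it shares 79.9% of its 31-base words with Hist2h2aa2. Hist3h2a, an H2A gene on chromosome 11, changed by 0.87 (adjusted p = 0.122), or an adjusted p of 0.0482 without greater curvature 2.

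None of the 9 tested H2B members was called in either direction with edgeR. Of them 2 had an unadjusted p under 0.05, as did 7480 of 16224 genes tested. Among the 9, the lowest adjusted p was 0.0557 (Hist1h2bh, log2 fold change 1.15), and all 9 fold changes were positive with a median of 1.01. DESeq2 called 3 higher (Hist1h2bh, Hist1h2bq and Hist3h2ba), and limma on log2 TPM called 3 at either pseudocount. Over all genes DESeq2 called 3587 of 16224 higher, and limma 5739 (plus 1) or 5927 (plus 0.1) of 15395. Hist3h2ba stood at 1.03, 0.262 and 0.612 CPM in the normals and at 0.102 to 21.5 CPM in the tumors (median 5.10). Greater curvature 2 was below all normals, 9 tumors were above them, and the log2 fold change was 2.96 (SE 1.17, adjusted p = 0.0712). Without greater curvature 2 the adjusted p was 0.0196. Hist2h2be changed by 0.55 (adjusted p = 0.155), and limma on log2 TPM plus 1 gave an adjusted p of 0.0225.

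Hist1h2bc (chromosome 13, 23684199 to 23692908), the most abundant Hist member, did not pass the test. Its normals stood at 35.3, 93.3 and 39.2 CPM and its tumors at 38.6 to 101.7 CPM (median 53.6). Normal 2 was far above the other normals and above 11 of the 12 tumors. It changed by 0.08 in log2 (SE 0.32, adjusted p = 0.863), which changed sign without normal 1 (-0.17), normal 3 (-0.12) or lesser curvature 1 (-0.05) and was 0.66 without normal 2.

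Hist1h2bc and Hist1h2ac are neighbours transcribed away from each other, with 250 bases between their annotated start sites (chromosome 13, 23684199 and 23683948). The window before Hist1h2ac is therefore shared by a gene that rose and a gene that was not called. It is printed with the window of Hist2h2aa2, the H2A gene that fell, with the same motifs in capitals.

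Hist1h2ac, chr13:23683960-23684209, minus strand: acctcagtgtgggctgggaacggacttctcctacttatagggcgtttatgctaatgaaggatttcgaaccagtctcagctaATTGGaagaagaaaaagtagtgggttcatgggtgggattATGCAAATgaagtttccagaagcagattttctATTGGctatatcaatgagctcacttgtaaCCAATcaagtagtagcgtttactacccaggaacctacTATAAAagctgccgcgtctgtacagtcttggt

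Hist2h2aa2, chr3:96240375-96240624, minus strand: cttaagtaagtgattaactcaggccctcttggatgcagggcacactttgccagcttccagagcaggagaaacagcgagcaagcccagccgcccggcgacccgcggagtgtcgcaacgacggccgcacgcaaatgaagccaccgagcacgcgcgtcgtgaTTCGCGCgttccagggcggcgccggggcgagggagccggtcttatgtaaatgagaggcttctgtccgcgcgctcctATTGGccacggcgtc

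The window shared by Hist1h2ac and Hist1h2bc holds 1 octamer, 3 CCAAT boxes and 1 TATA box, and that of Hist2h2aa2 holds 1 CCAAT box and 1 E2F word. The RefSeq start used for Hist2h2aa2 lies upstream of its GENCODE start (96240276), and the bases between these starts were not searched. Among eligible genes the octamer was in 7 of 17 H2A windows and 7 of 16 H2B windows, and in 0% of the H1, H3 and H4 windows. Another pair of members, Hist1h2ae and Hist1h2bg, has 175 bases between start sites, with log2 fold changes of 1.74 (called) and 1.01 (adjusted p = 0.264). The pair of Hist1h2ag and Hist1h2bj, with 269 bases, had changes of 2.69 and 1.35, neither called. In normals Hist1h2ag had 3 counts in all, and its tumor to normal ratio was 8.17. The exact 95% interval of 2.74 to 40.1 covers counting error only and not the spread between samples. With that spread, the edgeR test gave an SE of 1.45 and an adjusted p of 0.16.

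**Figure D2:**
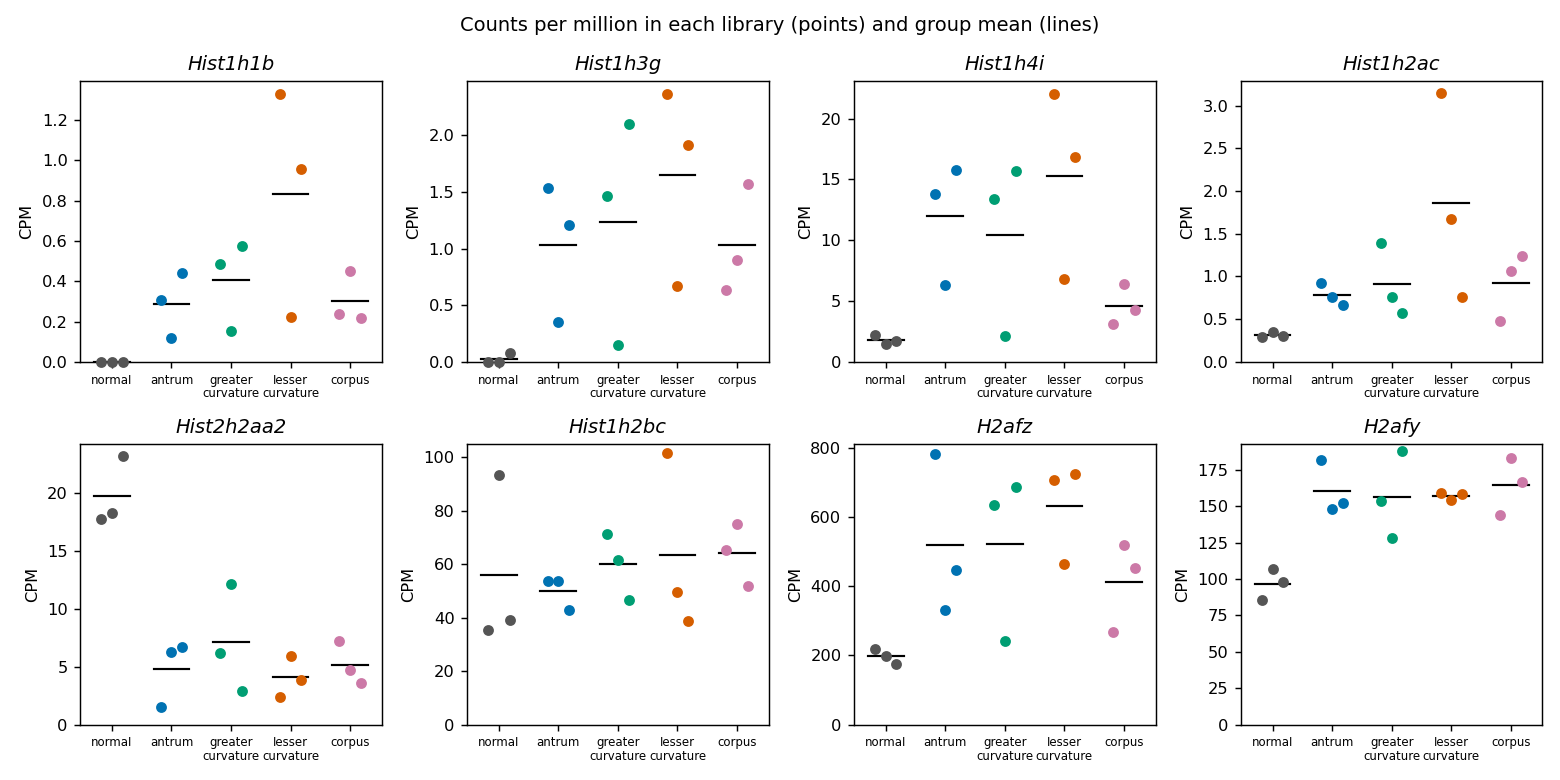
CPM (y axis, linear) of 8 histone genes in each library, grouped by normal tissue and tumor site (x axis), with points for libraries and lines for group means. The tumors of Hist1h1b, Hist1h3g, Hist1h2ac, H2afz and H2afy all lie above the normals and those of Hist2h2aa2 all below, while those of Hist1h2bc overlap them.

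Among the variants, the H2A variants accounted for 4 of the 5 genes that rose. H2afy (chromosome 13, 56073619 to 56136361), which encodes macroH2A1, a large H2A variant of silent chromatin, stood at 85.5, 106.7 and 97.7 CPM in the normals and at 128.1 to 187.8 CPM in the tumors (median 156.4). Every tumor exceeded every normal. Its log2 rise was 0.73 (SE 0.14, adjusted p = 0.00458), kept with any library left out.

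H2afz (chromosome 3, 137864487 to 137866922) stood at 220.1, 197.1 and 174.3 CPM in the normals and at 241.8 to 782.5 CPM in the tumors, with a median of 492 CPM. Again every tumor lay above every normal, with greater curvature 2 and corpus 1 the closest. The log2 fold change was 1.39 (SE 0.36, adjusted p = 0.0147), or an adjusted p of 0.0561 without normal 2 and 0.0679 without normal 3. H2afv, which encodes the other H2A.Z protein, went from 25.1, 22.2 and 16.5 CPM to 24.0 to 49.5 CPM (median 36.9), with 11 of 12 tumors above all normals. It rose by 0.79 (SE 0.27, adjusted p = 0.041), and that call was lost without any 1 of normals 1, 2 and 3, greater curvature 1 and 3, lesser curvature 1 and 3, and corpus 2 and 3, at 0.0577 to 0.17. It was also lost with no filter on low counts (0.0503).

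H2afy2, for macroH2A2, stood at 7.35, 2.09 and 5.12 CPM in the normals and at 6.52 to 55.4 CPM in the tumors (median 28.0). H1fx, a linker histone variant, stood at 8.30, 1.22 and 3.06 CPM and at 5.30 to 71.4 CPM (median 36.5). In each the lowest tumor, greater curvature 2, fell below the highest normal and the other 11 lay above it. H2afy2 rose by 2.58 (SE 0.72, adjusted p = 0.02) and H1fx by 3.13 (SE 0.94, adjusted p = 0.0269). Without normal 2 or normal 3 the adjusted p-values were 0.0839 and 0.0723 for H2afy2 and 0.101 and 0.103 for H1fx.

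The H3.3 genes and the remaining variants were not called. H3f3a stood at 331.3, 413 and 320.3 CPM in the normals and at 357.5 to 530.4 CPM in the tumors (median 460.3), 8 of 12 above all normals, with a log2 fold change of 0.31 (SE 0.16, adjusted p = 0.14). H3f3b changed by 0.14 (SE 0.19, adjusted p = 0.564). These 2 depended on the scale: limma on log2 TPM plus 1 gave 0.84 (adjusted p = 0.0055) and 0.70 (adjusted p = 0.0314). On that scale the median gene was 0.43 higher in tumors, and over all genes it called 5739 higher and 551 lower against 2628 and 2548 on counts. H1f0 stood at 287.4, 182 and 307.6 CPM in the normals and 166.6 to 396.1 CPM in the tumors (median 255.7), a log2 fold change of 0.03 (SE 0.27, adjusted p = 0.947), whose sign turned in 5 of the 15 fits that left out a library. H2afj, for the variant H2A.J, changed by -0.28 (SE 0.21, adjusted p = 0.304).

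**Figure D3:**
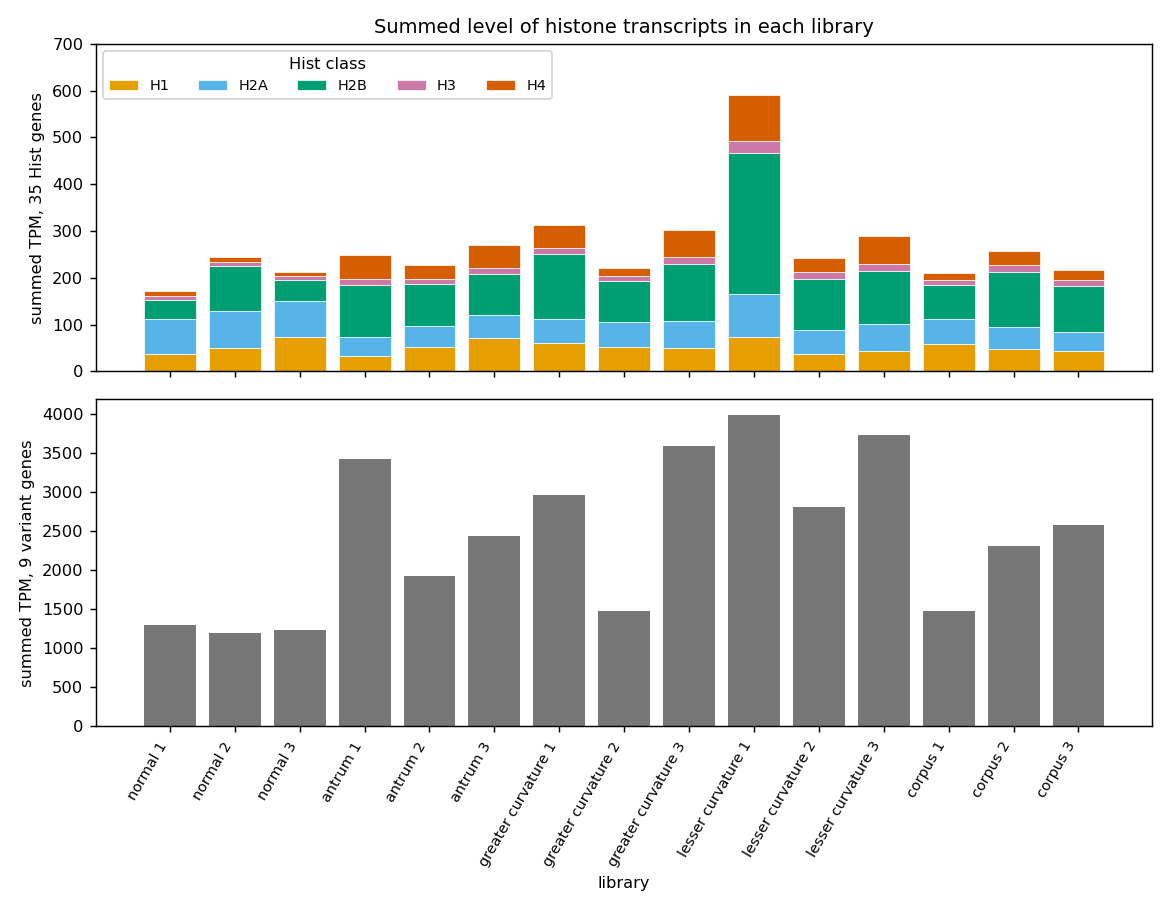
Summed TPM (y axes, from 0) in each of the 15 libraries (x axis) for the 35 Hist members, stacked by class (top), and for the 9 variant members (bottom). The variant sum of each tumor lies above those of the normals, and lesser curvature 1 has the highest Hist sum, 590.5 TPM.

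Summed over genes, the Hist members held 171.3, 244.3 and 211.3 TPM in the normals and 211 to 590.5 TPM in the tumors (median 252.8), 7 of 12 above all normals. The variant sum was 1293, 1200 and 1234 TPM in the normals and 1476 to 3990 TPM in the tumors, all 12 above. By class, the H4 sum went from 6.83 to 9.96 TPM in the normals to 16.1 to 98.3 TPM, and the H3 sum from 8.96 to 9.38 TPM to 9.56 to 25.5 TPM, each with all 12 tumors above. The H2B sum went from 41.7 to 96.1 TPM in the normals to 74.6 to 301.7 TPM, with 8 of 12 tumors above all normals. The H1 sum was 36.9 to 73.0 TPM in the normals and 33.2 to 73.8 TPM in the tumors, 1 of 12 above. The H2A sum was 74.1 to 78.3 TPM in the normals, and 11 of the 12 tumors lay below it, with lesser curvature 1 above at 91.2 TPM. These sums are levels on the TPM scale, with the shift of the median gene given above, and no test was made on them.

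Each site was next set against the same 3 normals, so the comparisons share their controls and only their own values are set side by side. In antrum tumors 5 members were higher and 1 lower, where 9.59% and 5.08% of all genes were (14.7% in either direction). The 5 were Hist1h1b, Hist1h3g, Hist1h4i, H2afy and H2afz, and Hist2h2aa2 was lower (-2.03, adjusted p = 0.0451). With the replicate number as a block, the H2afz call in the antrum was lost (1.34, adjusted p = 0.0528), H1fx and H2afy2 were called higher, and 2 members were lower (Hist2h2aa2 and Hist1h4h). In greater curvature tumors 5 were higher (Hist1h1b, Hist1h3g, Hist1h4i, Hist1h4k and H2afy) and 0 lower, against 6.5% and 2.76% of all genes (9.26% in either direction). For the lower direction, DESeq2 called 1 and limma 1, where 1404 (DESeq2) and 223 or 198 (limma) of all genes were lower. In lesser curvature tumors 13 were higher and 2 lower (Hist2h2aa2 and Hist1h4h), against 18.2% and 15.3% (33.6% in either direction), and the block added Hist1h2bg and Hist2h2be to those higher. In corpus tumors H2afy alone was higher (0.77, SE 0.17, adjusted p = 0.0351) and 0 were lower, against 2.35% and 1.19% of all genes (3.54% in either direction), and DESeq2 called 5 higher and 1 lower there. Over all genes DESeq2 called 1315 higher and 920 lower in the corpus. Among Hist members in the corpus 0 of 34 were called with edgeR, with 7 at an unadjusted p under 0.05. Over all genes 3901 of 16224 had an unadjusted p under 0.05 in that comparison.

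Hist1h4i showed the widest span between sites of the H4 genes that rose. It reached 13.8, 6.35 and 15.8 CPM in antrum tumors, 13.4, 2.14 and 15.7 in the greater curvature, 22.1, 6.83 and 16.9 in the lesser curvature and 3.08, 6.39 and 4.27 in the corpus. The sites overlapped. Its log2 fold changes were 2.74, 2.53, 3.09 and 1.35 in that order (SE 0.66 to 0.70), the last with an adjusted p of 0.237. Hist3h2ba and Hist3h2a were called in the lesser curvature comparison and in none of the other sites, at 4.03 (SE 1.34, adjusted p = 0.0384) and 1.72 (SE 0.51, adjusted p = 0.025). Their highest value was in lesser curvature 1, at 21.5 and 56.7 CPM.

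**Figure D4:**
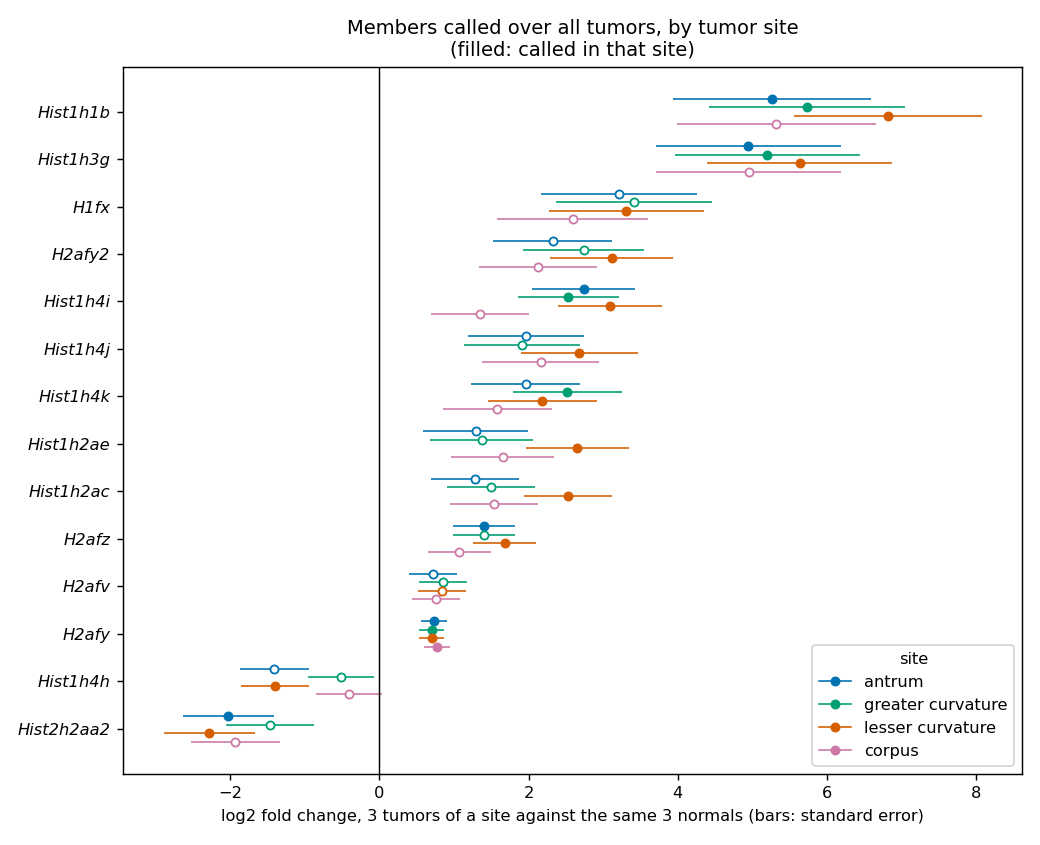
Log2 fold change against the shared normals (x axis, bars are standard errors) of the 14 members called over all tumors, with 1 color per tumor site and filled points where the member was called in that site. H2afy is called in all 4 sites, and the error bars of the sites overlap for most members.

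The F test among the 4 sites called 0 of 43 members with edgeR (lowest adjusted p = 0.862), and 0 members had an unadjusted p under 0.05. Its contrasts leave out the normals, though the normals were in the fit that gave the spread. DESeq2 and limma called 0 as well. With edgeR 0% of all genes were called and 5.84% had an unadjusted p under 0.05. Over all genes DESeq2 called 164, and limma called 3 on TPM plus 1 and 0 on TPM plus 0.1. The differences in the number of member calls between sites are therefore not shown to be differences in expression between them. Fitted with the compared groups alone, the members called higher numbered 1 in the antrum, 0 in the greater curvature and 0 in the corpus, where 701, 4 and 140 of all genes were higher. The site counts moved with single libraries, and so did those over all genes. In the antrum the members called higher dropped to 0 without normal 1, normal 3, antrum 1 or antrum 3 and to 1 without normal 2. The lower call there was lost without any normal or antrum tumor, without greater curvature 1, lesser curvature 1 or 3, or corpus 2 or 3. In the greater curvature they dropped to 0 without any of the 3 normals or without greater curvature 1 or 3, to 3 without antrum 3, lesser curvature 1 or 3, or corpus 2 or 3, and rose to 11, with 3 lower, without greater curvature 2. A lower call appeared there without lesser curvature 3. All genes called higher in the greater curvature numbered 144, 279 and 1 without normal 1, 2 and 3, 80 without greater curvature 1, 2599 without greater curvature 2 and 16 without greater curvature 3. In the lesser curvature the number was 6 without normal 2 or lesser curvature 1, 5 without normal 3 and 8 without lesser curvature 3, and the lower calls numbered 0 or 1 without any normal or lesser curvature tumor. In the corpus the H2afy call was lost without any normal, antrum 3, greater curvature 1, lesser curvature 1 or 3, or corpus 2 or 3, while 3 were called without greater curvature 2 and 2 without corpus 1.

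The genes that make, carry and deposit histones were read from lists. Of 18 genes for histone message processing 13 rose and 1 fell in all tumors, with a median log2 fold change of 0.70. Slbp itself rose by 0.77 (SE 0.14, adjusted p = 0.00436), with normals at a mean of 35 CPM (SD 6.00, n = 3) and tumors at 59.7 CPM (SD 7.47, n = 12). Eri1, an exonuclease that trims histone messages, rose by 0.98 (SE 0.14) and Lsm11, a subunit of the U7 particle, by 0.99 (SE 0.17). Mif4gd, a partner of Slbp in translation, fell by 0.84 (SE 0.17, adjusted p = 0.00537). Npat, which activates the clustered histone genes, changed by 0.49 (adjusted p = 0.124).

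Of 17 genes for the chaperones that place histones on newly made DNA, 15 rose, with a median of 1.14. Chaf1a, the large subunit of the assembly factor CAF-1, rose by 2.12 (SE 0.32, adjusted p = 0.00208), Dnajc9, a carrier of H3 and H4, by 1.92 (SE 0.33), Mms22l, which acts at stalled forks, by 1.60 (SE 0.26) and Rbbp7 by 0.86 (SE 0.12). Of 15 genes that handle variant histones 7 rose, with a median of 0.49. Cenpa, the H3 variant of centromeres, rose by 2.37 (SE 0.43, adjusted p = 0.0038), its chaperone Hjurp by 1.54 (SE 0.31), its loading factor Oip5 by 1.81 (SE 0.41) and Ep400, a remodeler that exchanges H2A.Z, by 0.60 (SE 0.13). The chaperone genes Hira, for H3.3, rose by 0.56 (adjusted p = 0.0414) and Daxx was not called (0.10, adjusted p = 0.647); both were named after their values were seen. Among the S-phase genes, Mcm4, Mcm3, Mcm6 and Ccne1 rose by 1.86, 1.71, 1.82 and 2.66.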

How the data were processed

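RNA from 15 stomach samples was sequenced on a NovaSeq as paired-end reads, per the labels' protocols. Per the submitters' processing notes, bcl2fastq 2.19, kallisto 0.44.0, sleuth, DESeq2 and GRCm38.p6 were used, with no role or order given. The count table deposited by the authors holds whole-number counts per gene; whether these are rounded kallisto estimates is not stated. The second table the authors deposited has FPKM in its name, yet its columns each sum to 1000000, and it was read as TPM. The sources used here do not say how reads shared by near-identical copies were divided.

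The main model was fitted in edgeR 4.0.16 under R 4.3.3 (filterByExpr with a minimum count of 10, TMM scaling, robust quasi-likelihood, all 15 samples in 1 fit by group), and adjusted over 16224 genes. Fold changes are log2, and calls needed an adjusted p under 0.05. Scripts were tested on simulated data. The labels do not say what a replicate number shares. Same-numbered samples deviated together (every r over 0.1) for the antrum (0.179 to 0.462) and the lesser curvature (0.143 to 0.367) against normal, which were taken as paired from these data alone, and not for the greater curvature (0.0881 to 0.427), the corpus (-0.257 to 0.0178) or all tumors together (17 of 30 same-numbered pairs over 0.1). Alternatives were DESeq2 1.42.0 and its size factors, limma 3.58.1 on log2 TPM plus 1 or 0.1 for genes at 1 TPM in 3 samples, other filters, a replicate block, the compared groups only, each library left out, greater curvature 2 and corpus 1 left out together, a test against a 1.5-fold change and, added later, near-identical copies summed.

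Coordinates, transcripts and 31-base words are from GENCODE M21 (GRCm38). Promoters are RefSeq windows on GRCm38.p6, matched for 40 of 44 members. The rule for named genes takes every variant member, in each Hist class the 4 with the highest mean TPM and the 2 largest called changes each way, and from each pathway list up to 4 genes with the smallest p. The just-missed members, the divergent pairs, Hist1h2bh, Hist1h2bq, Npat, Hira and Daxx were named after their values were seen. Members and lists were chosen with earlier results of these data known.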

Additional observations from a re-analysis of the deposited data

How the results depend on the processing

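Of the 35 Hist members 12 averaged under 1 TPM, and 1 count was worth up to 0.112 CPM. Leaving out each library in turn gave 2 to 10 Hist members higher and 1 to 3 lower, 1 to 5 variants higher and 0 to 0 lower. Over all genes the same fits called 1145 to 3395 higher and 1321 to 3505 lower. By site the member ranges were 0 to 7 higher and 0 to 1 lower in the antrum, 0 to 11 and 0 to 3 in the greater curvature, 5 to 15 and 0 to 3 in the lesser curvature, 0 to 3 and 0 to 0 in the corpus, and 0 to 0 among sites. All genes ranged over 207 to 2174 and 122 to 1123 in the antrum, and 1 to 2599 and 0 to 1574 in the greater curvature. In the lesser curvature they ranged over 1415 to 3378 and 744 to 3196. In the corpus these ranges were 0 to 888 and 0 to 330, with 0 to 16 genes called among sites.

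For all tumors, Hist members higher (7) became 11 with limma on TPM plus 0.1 and 11 without greater curvature 2 and corpus 1 together. Over all genes 2628 higher became 5927 and 3605. Hist members lower (2) became 1 with DESeq2 size factors, 1 with no filter, 1 with limma at either pseudocount, 4 without those libraries and 4 with the replicate block. Over all genes 2548 lower became 2581, 2249, 551 or 490, 3648 and 2851 in that order. Over all 5 groups 10 of 15 libraries correlated best with their own replicate number. With the block the antrum count lower became 2, and H2afz there (0.0528) and H2afy in the corpus (0.0501) lost their calls. Over all tumors, the block ended the call of Hist1h2ae (adjusted p = 0.0596), and Hist3h2ba (0.04), Hist2h2aa1 (0.048) and Hist2h3c1 (0.0236) were called. The antrum count higher (5) became 8 with DESeq2, 1 with the compared groups only, and 9 or 10 with limma, and the count lower (1) became 2 with DESeq2 and 0 with no filter or the compared groups only. Over all genes 1556 higher became 2660, 701 and 3745 or 4009. All genes lower there (824) became 1822, 449 with no filter, 201 with the compared groups only and 857 with the block. The greater curvature count higher (5) became 10 with DESeq2, 3 with no filter, 0 with the compared groups only, 10 or 11 with limma and 12 without greater curvature 2 and corpus 1, and the count lower (0) became 1, 1 and 1 with DESeq2 and limma and 3 without those libraries. Over all genes 1055 higher became 2447, 737, 4, 2930 or 3272, and 2788. All genes lower there (448) became 1404 with DESeq2, 223 or 198 with limma and 1642 without those libraries. The lesser curvature count higher (13) became 21 or 23 with limma, and the count lower (2) became 1 with no filter, the compared groups only or limma. Over all genes 2955 higher became 6540 or 6601. All genes lower there (2490) became 1970, 2198 and 688 or 629. The corpus count higher (1) became 5 with DESeq2, 0 with the compared groups only, 3 with limma on TPM plus 0.1 and 6 without greater curvature 2 and corpus 1, and the count lower (0) became 1 with DESeq2 and 1 with the compared groups only. Over all genes 381 higher became 1315, 140, 786 and 1571. All genes lower there (193) became 920 and 161. The cause of these shifts was not tested, other than that fits of the compared groups hold fewer samples. Of the members named by the rule and not called, 3 changed sign. Sign changes of the other members not called are not given here. H1f0 (0.03) turned to -0.17, -0.05, -0.05, -0.02 and -0.00 without normal 2, antrum 1, greater curvature 1, lesser curvature 1 and corpus 3, and was highest at 0.17 without normal 3. Hist1h1e (0.23) turned to -0.19 without normal 1 and -0.00 without greater curvature 2 and corpus 1, and reached 1.17 without normal 2. Hist1h2bc (0.08) turned to -0.17, -0.12 and -0.05 without normal 1, normal 3 and lesser curvature 1, and reached 0.66 without normal 2.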
